A study of Homo sapiens with 8 samples.

Results

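Extracellular signal-regulated kinase (ERK) carries growth factor signals from receptor tyrosine kinases through RAS, RAF and MEK to the nucleus, and its activity switches on genes whose proteins act back on the same route. Of these feedback genes, 8 were chosen by their gene symbol in the deposited table. They were the phosphatase genes DUSP1, DUSP4, DUSP5 and DUSP6, the Sprouty genes SPRY2 and SPRY4, and the Spred genes SPRED1 and SPRED2. All 8 were among the 18430 genes of the table, and all 8 passed the expression filter that 17445 genes passed. DUSP proteins of this family remove phosphate from both the threonine and the tyrosine of the activation loop of MAP kinases. Sprouty proteins restrain signalling between the receptor and RAF, and Spred proteins bring neurofibromin, which turns RAS off, to the membrane. In corneal epithelium, ERK signalling downstream of the EGF receptor is best known for its part in proliferation and wound closure.

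The libraries were made from HCE-T cells, an established human corneal epithelial cell line, grown for 7 days as a barrier in the upper channel of a microfluidic device. Cells then spent 24 h in one of 4 conditions. These were the AL stimulus with 50 µM DCF (AL_DCF), the AL stimulus alone (AL), static culture with 50 µM DCF (ST_DCF) and static culture alone (ST). The AL stimulus is repeated infusion of air and then of liquid through the channel, a model of evaporative dry eye, and DCF is the anti-inflammatory drug diclofenac. The growth medium of all conditions held serum, insulin, an epithelial growth factor that itself acts through receptor tyrosine kinases, and dimethyl sulfoxide. All libraries came from 1 cell line, and each condition had 2 of them (n = 2), described in the methods as independent biological samples. Levels below are CPM, which scales counts by library size, and TPM, which also divides by transcript length and was used wherever genes were compared with each other.

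Library totals lay between 32880479 and 46369412 counts, and were higher in the 4 libraries with the AL stimulus than in the 4 without it. Each comparison was tested with edgeR's quasi-likelihood test in one model of the 4 conditions, and a gene was called at an adjusted p under 0.05 over all 17445 genes. An exact two-sided permutation test of 2 libraries against 2 can reach no p under 0.333, which is why the model carries the tests of single genes. The first principal component, 48.4% of the variance, separated the AL stimulus from static culture. On the second, 12.9% of the variance, ST_DCF replicate 1 stood apart at −34.51, against −12.00 to 19.71 in the other 7 libraries. Of 9 corneal epithelial markers 7 were in the table, with a summed level of 730 to 814 CPM in AL_DCF and AL and 1780 to 2170 CPM in ST_DCF and ST. KRT3 and KRT12 were not among them, and CDH1, EPCAM, KRT18 and KRT5 were called lower, PAX6 higher, in the mean of both AL comparisons. Most of the summed level was KRT18, which is not particular to the cornea. KRT18 averaged 585 CPM in AL_DCF, 628 in AL, 1390 in ST_DCF and 1240 in ST. KRT14 and TP63 were near the floor, with condition means of 0.359 to 0.859 and 0.388 to 0.989 CPM. The extraction note of the labels names myoblasts, but the 3 myoblast markers in the table, DES, CKM and MYH3, summed to 2.84 to 4.3 CPM in every library. Summed fibroblast and endothelial markers (6 of 6 in the table) lay between 23.8 and 55.3 CPM with the AL stimulus and between 20.4 and 28 CPM without it. Of these, PDGFRB and PECAM1 were called higher with the stimulus (1.00 and 1.24 on the log2 scale), as was DES (0.96). PECAM1 was near the floor, averaging 0.609 CPM in AL_DCF, 1.38 in AL, 0.478 in ST_DCF and 0.311 in ST. DES averaged 1.03, 1.35, 0.687 and 0.53 CPM in the same order. The 55.3 CPM was reached in AL replicate 2 alone, and COL1A1 averaged 30.8 ± 16.7 CPM (SD) in AL. The leukocyte list was represented by CD68 alone of 4, at 38.8 to 68.9 CPM. The part that the markers have in the levels below was not tested, and fewer cells of a kind cannot be told apart from less RNA per cell in such bulk samples.

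Promoter sequence from RefSeq (GRCh38.p14) was examined for 6 of the 8 genes, in 9 windows of 300 bases, which need not cover every start. SPRY4 had a single window, with its start at chr5:142324247. The locus of this minus-strand gene reaches 142325021, so its outermost end was not examined. The promoters of DUSP4 and DUSP5 were not examined, which says nothing about whether RefSeq holds them. The windows were searched on both strands for 6 motifs known from growth factor and stress response. DUSP1 is shown because it changed most of the 8 genes, and SPRY2 and SPRY4 because these relatives moved in opposite directions. Each line gives the 250 bases before the start site, 5′ to 3′ on the gene's own minus strand, with motif matches in capitals. The windows are chr5:172771196-172771445 for DUSP1, chr13:80341127-80341376 for SPRY2 and chr5:142324248-142324497 for SPRY4.
DUSP1: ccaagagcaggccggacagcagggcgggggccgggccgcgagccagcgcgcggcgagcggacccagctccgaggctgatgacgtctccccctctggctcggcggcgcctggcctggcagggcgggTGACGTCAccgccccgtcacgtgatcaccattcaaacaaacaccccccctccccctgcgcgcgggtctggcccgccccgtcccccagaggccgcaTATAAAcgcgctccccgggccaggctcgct
SPRY2: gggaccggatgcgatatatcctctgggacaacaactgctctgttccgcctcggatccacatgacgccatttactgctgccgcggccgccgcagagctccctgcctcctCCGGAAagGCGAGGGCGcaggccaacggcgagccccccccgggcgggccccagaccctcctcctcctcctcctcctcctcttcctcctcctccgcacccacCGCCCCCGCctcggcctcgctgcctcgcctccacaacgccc
SPRY4: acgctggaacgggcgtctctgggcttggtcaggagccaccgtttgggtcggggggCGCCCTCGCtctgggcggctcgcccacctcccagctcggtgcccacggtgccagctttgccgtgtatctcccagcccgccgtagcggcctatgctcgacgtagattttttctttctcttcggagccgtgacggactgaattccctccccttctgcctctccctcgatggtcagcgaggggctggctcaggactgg
In DUSP1, the capitals mark a cyclic AMP response element (CRE, TGACGTCA) from −125 to −118 and a TATA box (TATAAA) from −30 to −25, counting the start site as 0. CRE letters occur in 1.85% of 35116 RefSeq promoters of the same length, and TATA letters in 11.5%. In SPRY2, they mark an ETS core (CCGGAA) from −142 to −137 and EGR motifs (GCGNGGGCG) from −134 to −126 and from −41 to −33, the last on the opposite strand. The ETS core occurs in 17.2% of promoters and the EGR motif in 9.43%. SPRY4 holds an EGR motif on the opposite strand from −195 to −187. No match to the AP-1 motif (TGANTCA, 7.71% of promoters) or to the CArG box (1.29%) lay in the windows of these 3 starts. A second start of SPRED2 held a TATA box and a pair of AP-1 matches, and the windows of DUSP6, SPRED1, the first start of SPRED2 and the other starts of SPRY2 held none of the 6 motifs. A match of letters is a description and not evidence of binding.

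The AL stimulus changed the feedback genes in both directions. In AL against ST, 2 of the 8 were called higher (DUSP1 and SPRY2) and 3 lower (DUSP5, SPRY4 and SPRED2), where 17.9% of all genes were called, 7.63% higher and 10.3% lower. In AL_DCF against ST_DCF, which shares no library with the first comparison, 2 were called higher (DUSP1 and SPRED1) and 2 lower (DUSP4 and DUSP5), where 20.7% of all genes were called, 9.38% higher and 11.4% lower. In the mean of both comparisons, 2 were higher (DUSP1 and SPRY2) and 4 lower (DUSP4, DUSP5, SPRY4 and SPRED2), where 31.7% of all genes were called, 15.3% higher and 16.4% lower. The median log2 fold change of the 8 in that mean was −0.15, beside 0.01 over all genes tested. DUSP1 and DUSP5 were the members called in each of the 2 comparisons taken alone. Only DUSP1 changed by a fold of 2 or more in each of them.

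**Figure D1:**
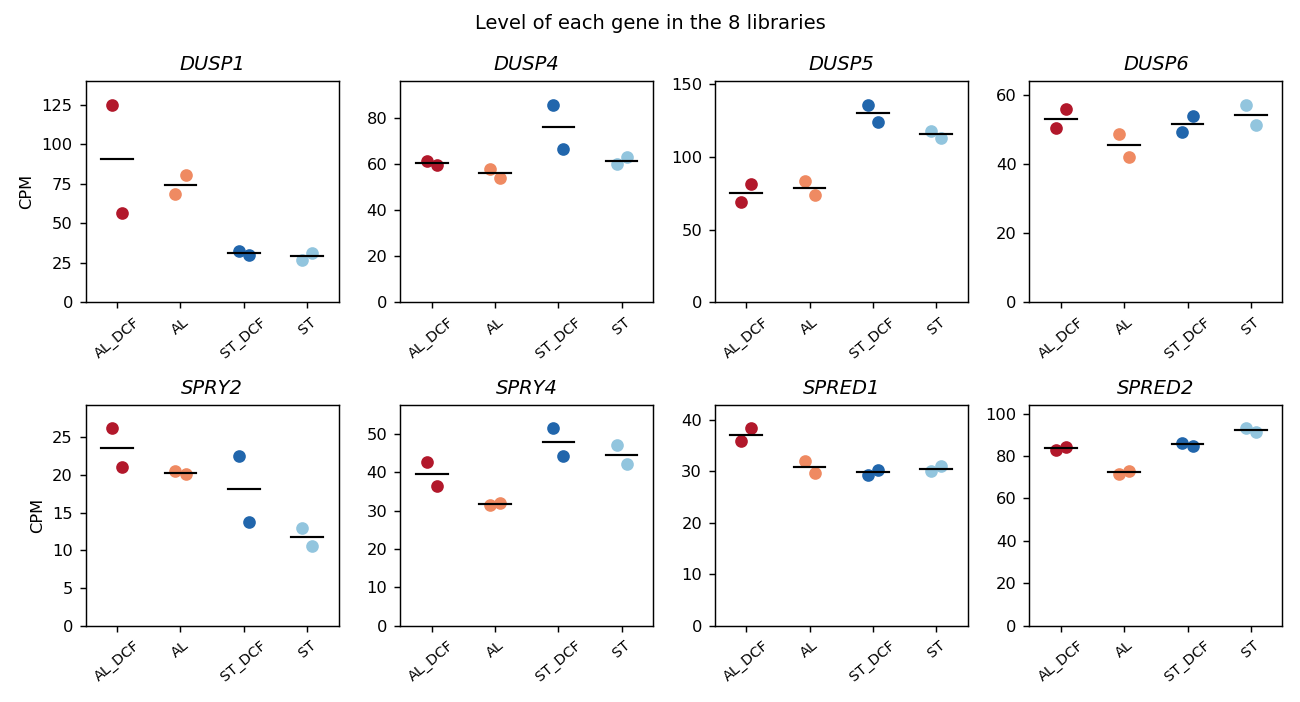
CPM of each of the 8 genes in each library, with the condition on the x axis, points for the 2 libraries and a line for their mean. DUSP1 lay at 56.6 to 125 CPM in the 4 libraries with the AL stimulus and at 26.8 to 32.2 CPM in the 4 without it, while DUSP5 lay at 69.2 to 83.5 CPM and at 113 to 136 CPM.

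DUSP1 (gene identifier 1843, chr5:172768096-172771195, minus strand, GRCh38.p14) encodes the nuclear phosphatase MKP-1, an immediate early gene product that also acts on JNK and p38. Its level was 125 and 56.6 CPM in AL_DCF, 68.4 and 80.3 CPM in AL, 32.2 and 30.0 CPM in ST_DCF, and 26.8 and 31.1 CPM in ST. Every library with the AL stimulus lay above every library without it, but the AL_DCF libraries differed from each other by 1.14 on the log2 scale, the widest gap between replicates among the 8 genes. DUSP1 rose in AL against ST, by 1.36 ± 0.27 on the log2 scale (SE; adjusted p = 0.00456, edgeR's quasi-likelihood test). Against ST_DCF, it rose in AL_DCF by 1.54 ± 0.27 on the log2 scale (adjusted p = 0.00189). Without AL_DCF replicate 1 the second value was 0.86, and without AL_DCF replicate 2 it was 2.0. Either fit leaves a single AL_DCF library, so the gap between the pair does not enter its test. The mean of both comparisons was 1.45 ± 0.19, a 2.74-fold higher level (adjusted p = 1.4e-04). FOS, an immediate early gene of the AP-1 complex, had 72.8 and 51.8 CPM in the same AL_DCF libraries. It is 1 of 16 immediate early genes listed, and whether they share the gap between these libraries was not tested.

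DUSP5 (gene identifier 1847, chr10:110497907-110511533, plus strand) encodes a nuclear phosphatase selective for ERK. It had 69.2 and 81.2 CPM in AL_DCF, 83.5 and 73.7 CPM in AL, 136 and 124 CPM in ST_DCF, and 118 and 113 CPM in ST. All 4 libraries with the AL stimulus lay below all 4 without it, and the widest gap between replicates was 0.23 on the log2 scale. DUSP5 fell in AL against ST (log2 fold change −0.56 ± 0.10, adjusted p = 0.00237) and in AL_DCF against ST_DCF (−0.79 ± 0.10, adjusted p = 2.0e-04). Averaged over both, the change was −0.68 ± 0.07, or 0.626 of the static level (adjusted p = 2.3e-05). Of the pseudogene copies of DUSP5, only DUSP5P1 was in the table, with at most 42 counts in a library.

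DUSP4 (gene identifier 1846, chr8:29333064-29350684, minus strand) encodes the nuclear phosphatase MKP-2. Its level was 61.0 and 59.3 CPM in AL_DCF, 57.8 and 53.8 CPM in AL, 85.6 and 66.6 CPM in ST_DCF, and 59.8 and 62.8 CPM in ST. The highest value was that of ST_DCF replicate 1, the library that stood apart, and the other 7 libraries lay between 53.8 and 66.6 CPM. In AL_DCF against ST_DCF DUSP4 was called lower, at −0.34 ± 0.11 on the log2 scale (adjusted p = 0.044), but without ST_DCF replicate 1 this was −0.15 (adjusted p = 0.31). The call was also lost without any one of ST replicates 1 and 2, AL replicates 1 and 2 and AL_DCF replicates 1 and 2 (adjusted p = 0.0678 to 0.145, log2 fold changes −0.36 to −0.32). In AL against ST its log2 fold change was −0.14 ± 0.11 (adjusted p = 0.432). The mean of both, −0.24 ± 0.08 (adjusted p = 0.0332), was not called without any one of ST replicates 1 and 2, AL replicates 1 and 2, AL_DCF replicate 2 and ST_DCF replicate 1, with values from −0.26 to −0.14 (adjusted p = 0.0638 to 0.121).

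DUSP6 (gene identifier 1848, chr12:89347235-89352501, minus strand) encodes the cytoplasmic phosphatase MKP-3, which is selective for ERK and widely used as a readout of its activity. It had 50.4 and 55.8 CPM in AL_DCF, 48.7 and 42.1 CPM in AL, 49.1 and 53.8 CPM in ST_DCF, and 57.1 and 51.2 CPM in ST. The libraries with and without the AL stimulus overlapped. Its log2 fold change was −0.25 in AL against ST (95% interval −0.48 to −0.03, adjusted p = 0.11) and 0.05 in AL_DCF against ST_DCF (95% interval −0.18 to 0.27, adjusted p = 0.798). In the model of AL and ST alone, the first value was −0.25 with an adjusted p of 0.0248. RefSeq annotates a readthrough gene, POC1B-DUSP6, over the same locus, which was not analysed here.

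SPRY2 (gene identifier 10253, chr13:80335976-80341126, minus strand), the Sprouty gene best known for binding CBL and GRB2, had the lowest CPM of the 8 in every library. Its level was 26.2 and 21.1 CPM in AL_DCF, 20.5 and 20.1 CPM in AL, 22.5 and 13.8 CPM in ST_DCF, and 13.0 and 10.6 CPM in ST. Both AL libraries lay above both ST libraries, whereas ST_DCF replicate 1 lay within the range of the AL_DCF pair. SPRY2 was called higher in AL against ST, at 0.78 ± 0.20 on the log2 scale (adjusted p = 0.0196). Its value was 0.64 without ST replicate 2 (adjusted p = 0.156), 0.77 without AL replicate 1 (adjusted p = 0.0944) and 0.79 without AL replicate 2 (adjusted p = 0.0872). In AL_DCF against ST_DCF it was 0.38 ± 0.19 (adjusted p = 0.194), and 0.77 without ST_DCF replicate 1. Over both comparisons it averaged 0.58 ± 0.14 (adjusted p = 0.00806), and with each library left out in turn it stayed called.

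SPRY4 (gene identifier 81848, chr5:142310430-142325021, minus strand) encodes a second Sprouty inhibitor and moved the other way. It had 42.7 and 36.5 CPM in AL_DCF, 31.5 and 31.9 CPM in AL, 51.4 and 44.1 CPM in ST_DCF, and 47.0 and 42.2 CPM in ST. The AL pair lay below the ST pair and the AL_DCF pair below the ST_DCF pair, with an overlap only of AL_DCF replicate 1 and ST replicate 2. SPRY4 was called lower in AL against ST, at −0.49 ± 0.11 on the log2 scale (adjusted p = 0.00913). That value was −0.41 without ST replicate 1 (adjusted p = 0.0978), −0.48 without AL replicate 1 (adjusted p = 0.0736) and −0.50 without AL replicate 2 (adjusted p = 0.0661). In AL_DCF against ST_DCF it was −0.27 ± 0.11 (adjusted p = 0.099), −0.39 without AL_DCF replicate 1 and −0.38 without ST_DCF replicate 2. The mean, −0.38 ± 0.08 (adjusted p = 0.00292), was called with each library left out in turn. SPRY4-IT1, a noncoding RNA at this locus, was not analysed here.

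SPRED1 (gene identifier 161742, chr15:38252836-38357249, plus strand) encodes the Spred protein whose loss causes Legius syndrome. It had 35.9 and 38.3 CPM in AL_DCF, 31.9 and 29.6 CPM in AL, 29.3 and 30.2 CPM in ST_DCF, and 30.0 and 31.0 CPM in ST. The AL_DCF pair stood above the other 6 libraries, which lay between 29.3 and 31.9 CPM. SPRED1 was called higher in AL_DCF against ST_DCF, at 0.32 ± 0.09 on the log2 scale (adjusted p = 0.0278), but not without any one of ST replicates 1 and 2, AL_DCF replicate 2 and ST_DCF replicate 1, where it was 0.27 to 0.32 (adjusted p = 0.0553 to 0.112). In AL against ST it was 0.01 ± 0.09 (95% interval −0.18 to 0.21, adjusted p = 0.932). Their mean was 0.17 ± 0.06 (adjusted p = 0.0678).

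SPRED2 (gene identifier 200734, chr2:65307175-65432599, minus strand) encodes the paralog of SPRED1. It had 82.7 and 84.4 CPM in AL_DCF, 71.7 and 73.1 CPM in AL, 86.2 and 84.9 CPM in ST_DCF, and 93.0 and 91.3 CPM in ST. Its replicates were the closest of the 8 genes, no more than 0.03 apart on the log2 scale, and the order ST, ST_DCF, AL_DCF, AL from high to low held without overlap. SPRED2 was called lower in AL against ST (−0.35 ± 0.07, adjusted p = 0.006), but not without any one of ST replicates 1 and 2 and AL replicates 1 and 2, where the value was −0.36 to −0.33 (adjusted p = 0.0525 to 0.0698). In AL_DCF against ST_DCF it was −0.03 ± 0.07 (95% interval −0.19 to 0.12, adjusted p = 0.782). The mean of both was −0.19 ± 0.05 (adjusted p = 0.0134), and was not called without ST replicate 1 (−0.19, adjusted p = 0.0644), ST replicate 2 (−0.20, adjusted p = 0.0541) or AL replicate 1 (−0.18, adjusted p = 0.064).

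**Figure D2:**
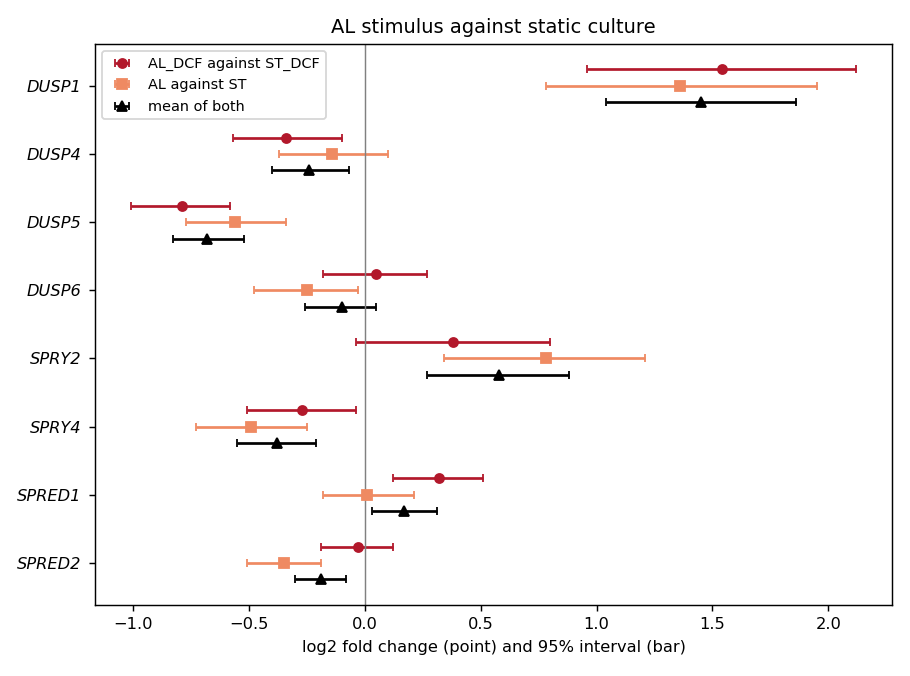
Log2 fold change of each gene (x axis) in AL_DCF against ST_DCF, in AL against ST and in the mean of both, with 95% intervals of the model for single genes as bars. DUSP1 lies right of 0 and DUSP5 left of 0 in all 3, whereas SPRED1 and SPRED2 differ from 0 in 1 of the 2 separate comparisons each.

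Set against ST, AL_DCF gave 3 of the 8 genes called higher (DUSP1, SPRY2 and SPRED1) and 1 lower (DUSP5), where 18.3% of all genes were called, 8.49% higher and 9.83% lower. This comparison combines stimulus and drug and shares libraries with those above. The log2 fold changes were 1.65 for DUSP1 (adjusted p = 0.00146), 1.00 for SPRY2 (adjusted p = 0.00508), 0.28 for SPRED1 (adjusted p = 0.0485) and −0.62 for DUSP5 (adjusted p = 0.00123). SPRY2 was not called without ST replicate 2 (0.86, adjusted p = 0.0635). For DUSP1, the value was 0.97 without AL_DCF replicate 1 and 2.11 without AL_DCF replicate 2. SPRED1 was not called without any one of ST replicates 1 and 2, AL replicates 1 and 2 and AL_DCF replicates 1 and 2 (0.24 to 0.33, adjusted p = 0.054 to 0.258). Its adjusted p was also above the threshold with the replicate number as a block (0.0735), without a filter (0.0506), with upper-quartile factors (0.0598), with the compared libraries alone (0.0658) and with limma on log2(FPKM + 1) (0.13) or log2(FPKM + 0.1) (0.134).

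On the TPM scale, the order of the 8 levels differed between the conditions. In ST, DUSP5 was highest at 106 ± 3.68 TPM (SD, n = 2), followed by SPRED2 at 47.2, DUSP6 at 33.9, DUSP1 at 32.6, DUSP4 at 24.6, SPRY4 at 20.6, SPRY2 at 11.1 and SPRED1 at 8.89 TPM. The libraries of DUSP6 and DUSP1 overlapped in that order, and no other neighbours did. In AL, DUSP1 headed the order at 83.3 ± 9.55 TPM, ahead of DUSP5 at 71.5 ± 6.18 TPM, and SPRY2 at 19.8 TPM stood above SPRY4 at 14.5 TPM. DUSP1 averaged 103 ± 55.9 TPM in AL_DCF, where its libraries overlapped those of DUSP5 (69.2 ± 6.97 TPM) and those of SPRY2 overlapped those of SPRY4. ST_DCF kept the order of ST except that DUSP1 (35.7 TPM) came before DUSP6 (32.7 TPM), with overlaps between DUSP6 and DUSP4 and between SPRY4 and SPRY2.

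Ratios within a library, chosen after the values were seen and given without a test, compare the levels of family members. DUSP1 over DUSP5 was 2.22 and 0.857 in AL_DCF, 1.01 and 1.34 in AL, 0.292 and 0.296 in ST_DCF, and 0.278 and 0.338 in ST. SPRY2 over SPRY4 was 1.18 and 1.17 in AL_DCF, 1.37 and 1.35 in AL, 0.848 and 0.602 in ST_DCF, and 0.589 and 0.484 in ST. In both pairs, every library with the AL stimulus had a higher ratio than every library without it. The ratio of SPRED1 to SPRED2 spanned 0.235 to 0.261 with the stimulus and 0.185 to 0.203 without it. The sum of all 8 genes was 360 and 286 TPM in AL_DCF, 285 and 285 TPM in AL, 338 and 289 TPM in ST_DCF, and 290 and 280 TPM in ST. The libraries of the conditions overlapped in this sum, with the highest values in AL_DCF replicate 1 and ST_DCF replicate 1.

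**Figure D3:**
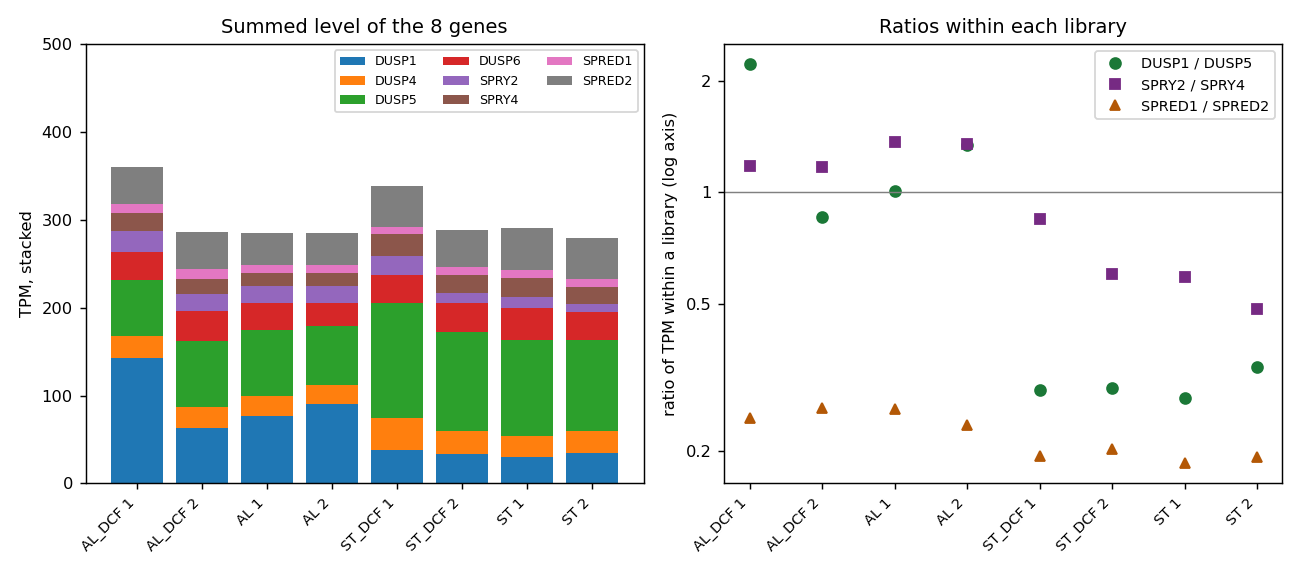
Left, TPM of the 8 genes stacked for each library (y axis), and right, 3 ratios of TPM within each library on a log axis. The summed level was 285 to 360 TPM with the AL stimulus and 280 to 338 TPM without it, while DUSP1 over DUSP5 was 0.857 to 2.22 with the stimulus and 0.278 to 0.338 without it.

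None of the 8 genes was called in a comparison of DCF with no drug, or in the test of whether the AL effect differed with DCF. By edgeR's quasi-likelihood test 0 of 8 were called in ST_DCF against ST, where 0.00573% of all genes were called, and 2 (DUSP4 and SPRY2) had an unadjusted p under 0.05. In AL_DCF against AL, 0 of 8 were called, where 0.355% of all genes were (0.103% higher and 0.252% lower), and 4 (DUSP6, SPRY4, SPRED1 and SPRED2) had an unadjusted p under 0.05. For the mean of the 2 drug comparisons the share of all genes called was 0.126% (0.0287% higher and 0.0974% lower), and for the interaction 0.0344%. There, 3 and 2 of the 8 genes had an unadjusted p under 0.05. The share of all genes with an unadjusted p under 0.05 was 10% in ST_DCF against ST and 12.6% in AL_DCF against AL. It was 12.1% in the mean of the 2 drug comparisons and 11.3% in the interaction. DESeq2 and limma on log2(FPKM + 1) also called 0 of the 8 in these 4 tests, and edgeR's exact test with a fold of 2 called 0 in AL_DCF against AL and in ST_DCF against ST.

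The sizes that the data allow differed between the genes. In AL_DCF against AL, SPRY4 was 0.32 higher on the log2 scale (95% interval 0.08 to 0.56, adjusted p = 0.253), SPRED1 0.27 (0.07 to 0.46, adjusted p = 0.241), DUSP6 0.23 (0.00 to 0.45, adjusted p = 0.388) and SPRED2 0.21 (0.05 to 0.36, adjusted p = 0.263). The median of the 8 genes in AL_DCF against AL was 0.22, beside 0.01 over all genes. DUSP1 was not resolved, with 0.29 and a 95% interval of −0.27 to 0.84. That value was −0.39 without AL_DCF replicate 1 and 0.75 without AL_DCF replicate 2. DUSP5 was −0.06 in AL_DCF against AL (95% interval −0.28 to 0.15).

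In static culture, SPRY2 had a log2 fold change of 0.62 with DCF (95% interval 0.18 to 1.06, adjusted p = 0.383) and DUSP4 one of 0.31 (0.08 to 0.55, adjusted p = 0.406). Both rested on ST_DCF replicate 1, and without ST_DCF replicate 2 they were larger, at 0.92 for SPRY2 and 0.48 for DUSP4. Without ST_DCF replicate 1, SPRY2 had 0.23 and DUSP4 had 0.12. In the mean of the 2 drug comparisons without ST_DCF replicate 2, SPRY2 had 0.57 and DUSP4 had 0.29. The interaction was 0.31 for SPRED2 (95% interval 0.09 to 0.54, adjusted p = 0.315) and 0.30 for SPRED1 (0.02 to 0.58, adjusted p = 0.413). The separate calls of SPRED2 in AL against ST and of SPRED1 in AL_DCF against ST_DCF were therefore not shown to depend on the drug.

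**Figure D4:**
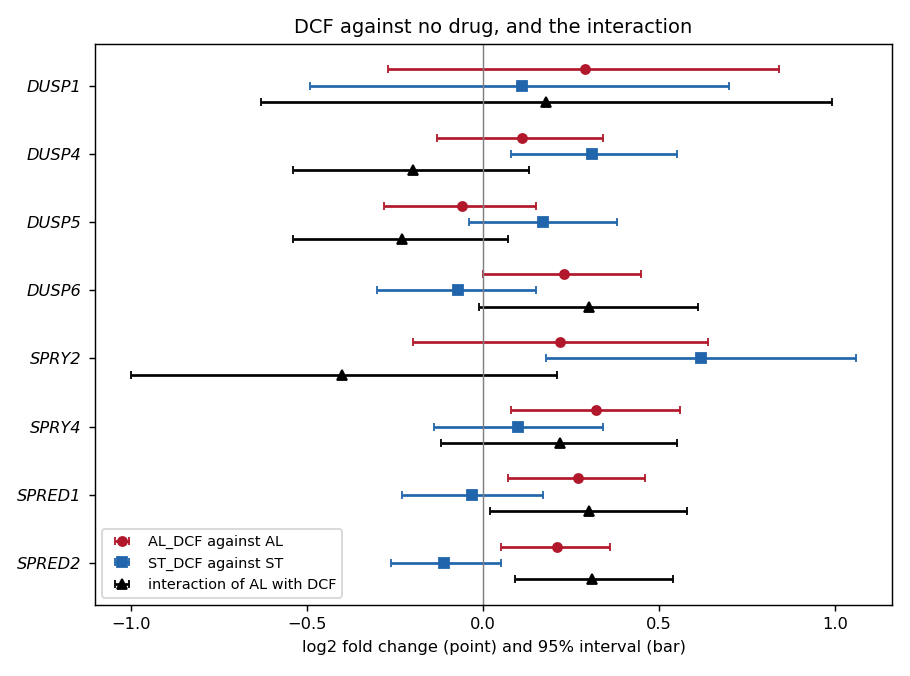
Log2 fold change of each gene (x axis) in AL_DCF against AL and in ST_DCF against ST, and the interaction of AL with DCF, with 95% intervals for single genes as bars. DUSP1 has the widest bars, from −0.27 to 0.84 in AL_DCF against AL, and no gene was called after adjustment over all genes.

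The other genes of the pathway were counted in the mean of both AL comparisons, where 31.7% of all genes were called. Among 9 other DUSP phosphatase genes, 3 were lower and 6 were not called, with a median of −0.12. DUSP10, which encodes the JNK and p38 phosphatase MKP-5, had 12.1 and 11.0 CPM in AL_DCF, 11.9 and 13.4 CPM in AL, 23.2 and 17.6 CPM in ST_DCF, and 19.3 and 22.9 CPM in ST. It fell by 0.78 on the log2 scale (adjusted p = 1.8e-04), and all libraries with the stimulus lay below all without it. DUSP14 fell by 0.32 (adjusted p = 7.1e-04) and DUSP7, a cytoplasmic ERK phosphatase gene, fell by 0.23 (adjusted p = 0.0278).

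Of 15 other genes of the regulation of receptors and RAS, mostly inhibitors, 3 were higher, 3 lower and 9 not called, with a median of 0.02. LRIG1, whose product promotes the degradation of EGF receptors, had 19.0 and 17.5 CPM in AL_DCF, 18.6 and 15.8 CPM in AL, 6.49 and 8.15 CPM in ST_DCF, and 6.66 and 7.5 CPM in ST. It rose by 1.30 on the log2 scale (adjusted p = 3.4e-06), and its relative LRIG3 rose by 0.69 (adjusted p = 7.4e-04). SHOC2, whose product promotes RAF activation and is no inhibitor, rose by 0.26 (adjusted p = 0.00949), and the RAS GTPase-activating gene RASA1 fell by 0.27 (adjusted p = 0.0127). When either ST library or AL replicate 2 was left out, 1 of them was lower, and 5 were when ST_DCF replicate 2 was.

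Growth factor and receptor genes were mostly lower, with 10 of 15 lower and 2 higher and a median of −0.67. ERBB3, a receptor of the EGF receptor family, had 40.5 and 40.9 CPM in AL_DCF, 41.7 and 40.9 CPM in AL, 117 and 104 CPM in ST_DCF, and 99.0 and 105 CPM in ST. Its log2 fold change was −1.37 (adjusted p = 2.0e-08), and the 2 sets of libraries did not overlap. The EGF receptor ligand genes TGFA and HBEGF fell by 1.02 (adjusted p = 1.3e-07) and by 0.61 (adjusted p = 4.5e-06), and FGFR2 fell by 0.88 (adjusted p = 4.6e-06). These lower genes moved with the lower epithelial markers given above, and the part of those markers in the result was not tested.

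Within the cascade from RAS to ERK, 4 of 20 genes were higher and 1 lower, with a median of 0.05. MAP2K2, which encodes MEK2, rose by 0.34 (adjusted p = 0.002). SOS2 rose by 0.28 (adjusted p = 0.0101) and the adaptor gene GAB1 fell by 0.57 (adjusted p = 7.3e-04). Leaving out ST replicate 2 or AL replicate 1 gave 2 higher genes, and leaving out AL_DCF replicate 1 gave 2 lower ones.

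Among 16 immediate early genes, 9 were higher and 3 lower, with a median of 0.47. EGR1 rose by 2.31 (adjusted p = 2.2e-09), FOS by 2.62 (adjusted p = 5.1e-08), KLF2 by 1.36 (adjusted p = 1.2e-05) and IER2 by 1.05 (adjusted p = 3.8e-07). DUSP1 at 1.45 lay within the range of these 4, which had the smallest adjusted p of the list, and above the median of the 16. When either ST library or AL replicate 2 was left out, 1 was lower. Of 14 other output genes of ERK, some of which are also early response genes, 4 were higher and 6 lower, with a median of −0.11. LIF, a cytokine gene, fell by 1.30 (adjusted p = 6.9e-08) and CCND1, the cyclin D1 gene, fell by 1.22 (adjusted p = 4.9e-07). ETV1, an ETS factor gene, rose by 0.51 (adjusted p = 0.00143), and EPHA2 fell by 0.28 (adjusted p = 0.00325). The higher output genes numbered 2 without ST replicate 2. The pathway lists other than the feedback genes, JNK, p38 and glucocorticoid genes included, held 108 entries. ERRFI1 was in both the receptor regulator and the glucocorticoid list and is counted under each. Of the 108, edgeR's quasi-likelihood test called 0 in each of the drug comparisons and in the interaction. Those with an unadjusted p under 0.05 numbered 15 in AL_DCF against AL, 18 in ST_DCF against ST, 16 in their mean and 13 in the interaction. Over all genes tested, the shares at that threshold were 12.6%, 10%, 12.1% and 11.3% in the same order. DESeq2 called 1, 1, 3 and 2 of the 108 in that order, and limma on log2(FPKM + 1) called 0 in all 4. The exact test with a fold of 2 called 0 in AL_DCF against AL and 2 in ST_DCF against ST.

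**Figure D5:**
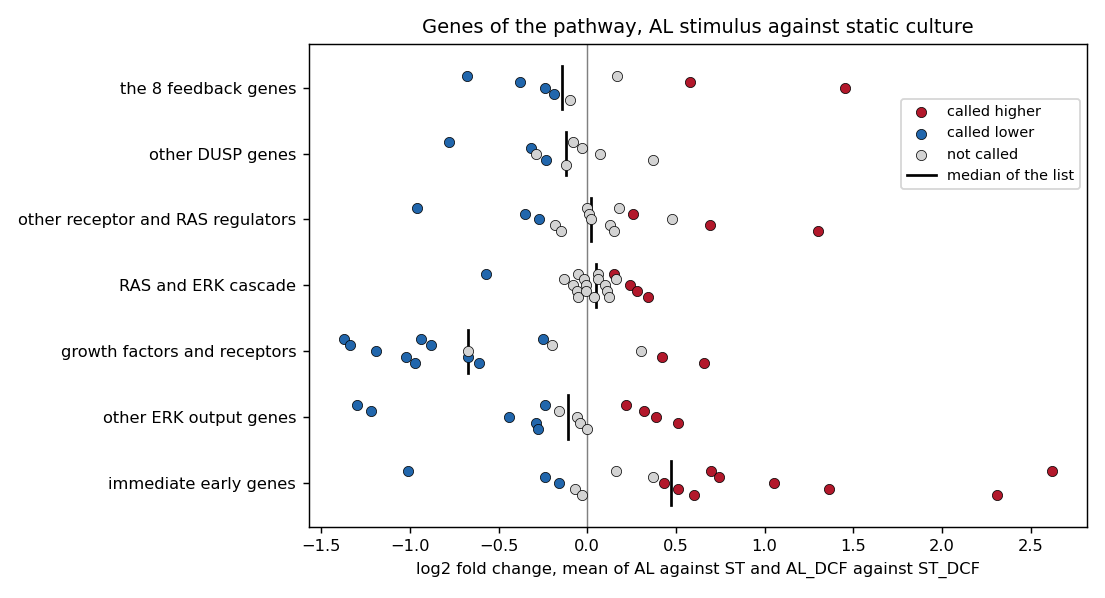
Log2 fold change of every listed gene in the mean of the 2 AL comparisons (x axis) by list (y axis), with points for genes called higher, called lower or not called and a line for the median. Medians run from −0.67 for growth factors and receptors to 0.47 for immediate early genes, with the 8 feedback genes at −0.15.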

How the data were processed

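RNA sequencing libraries of 8 HCE-T samples, 2 in each of 4 conditions, were analysed. Per the labels and the methods, the libraries came from a stranded mRNA kit, reads were trimmed (Trimmomatic 0.38) and aligned to GRCh38 (HISAT2 2.1.0). The authors took the read count of each gene from StringTie 2.1.3b, and the counts were deposited as raw values. Deposited FPKM values had been divided by the authors by transcript length and mapped reads, and deposited TPM values also by the sum over all transcripts. Deposited columns with the authors' own fold changes and p-values were not used.

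Counts were analysed in R 4.3.3 with edgeR 4.0.16. Genes were filtered by condition with filterByExpr, TMM factors were computed, and 1 model of the 4 conditions was fitted to the 8 libraries, with 7.50 prior and 4 residual degrees of freedom. Unless another tool is named, each adjusted p belongs to edgeR's quasi-likelihood test and was adjusted by Benjamini-Hochberg over 17445 genes. Intervals are 95% intervals for a single gene. The biological coefficient of variation was 9.48%. Replicate numbers were not treated as pairs. Deviations from the group means had correlations from −0.102 to 0.0985 between conditions, which cannot show whether samples were handled in pairs.

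The 8 genes, the other lists and the tests were chosen with earlier results of these data known. All 8 genes are named, and of each other list up to 4 genes with the smallest adjusted p in the mean of both AL comparisons. Genes most like a called member had the smallest root mean square difference in log2 CPM (prior count 2, average above 1) after centring on each gene's mean. The alternatives tried were upper-quartile and RLE factors, DESeq2 1.42.0, a filter of at least 10 counts or none, the compared libraries alone, a replicate block, limma 3.58.1 on log2(FPKM + 1) or log2(FPKM + 0.1), an added fold of 2, edgeR's exact test with that fold and an unadjusted p under 0.05, and leaving out each library. Leaving out libraries for the other lists was added after the data were seen. Where a library is left out, its partner is assumed to vary like the other conditions. An adjusted p or a call from such a fit does not include the spread within that condition.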

Additional observations from a re-analysis of the deposited data

How the results depend on the processing

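DUSP1 and DUSP5 kept their directions in AL against ST, AL_DCF against ST_DCF, AL_DCF against ST and the mean of both AL comparisons under every alternative run, with log2 fold changes from 0.86 to 2.11 and from −0.91 to −0.47. DUSP1 stayed called in all of them, and DUSP5 in all but those that require a fold of 2. Where an AL_DCF library was left out, the call of DUSP1 does not include the gap between that pair. With a fold of 2 added to the adjusted p, 1 of the 8 genes was called higher and 0 lower in each of the 4 comparisons. EdgeR's exact test with that fold called 1 higher and 0 lower in AL against ST and in AL_DCF against ST_DCF, and 0 lower in AL_DCF against ST. In AL_DCF against ST_DCF, 1 gene was higher and 1 lower with the compared libraries alone or limma at either pseudocount, and 1 was lower without a filter. Limma on log2(FPKM + 1) called 1 higher and 2 lower in AL against ST, where SPRY2 and SPRY4 lost their calls, and at either pseudocount limma called 3 lower in the mean of both AL comparisons, where DUSP4 lost its call. The cause of these losses was not tested, beyond the fold that 2 of the alternatives add.

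Leaving out 1 library at a time, the members called in AL against ST numbered 1 to 2 higher and 1 to 3 lower, and in AL_DCF against ST_DCF 1 to 2 higher and 1 to 3 lower. In the mean of both they were 2 to 2 and 2 to 4, and in AL_DCF against ST 1 to 3 and 1 to 1. In ST_DCF against ST 0 to 2 were higher, in AL_DCF against AL 0 to 1, and in the mean of the drug comparisons 0 to 2. Directions turned only for values that were not called with all libraries. In AL against ST, SPRED1 ranged from −0.04 to 0.07, below 0 without ST replicate 1 or AL replicate 1, and in AL_DCF against ST_DCF, DUSP6 ranged from −0.03 to 0.12, below 0 without AL_DCF replicate 2 or ST_DCF replicate 1. In AL_DCF against ST, DUSP4 ranged from −0.07 to 0.01, the last without ST replicate 2, and DUSP6 from −0.11 to 0.05, above 0 without ST replicate 1 or AL_DCF replicate 1. In ST_DCF against ST, DUSP6 ranged from −0.15 to 0.01, the last without ST replicate 1, and SPRY4 from −0.01, without ST_DCF replicate 1, to 0.21. In AL_DCF against AL, DUSP5 ranged from −0.18 to 0.05, above 0 without AL replicate 1 or AL_DCF replicate 1. DUSP1 ranged from −0.39 to 0.75 in AL_DCF against AL and from −0.14 to 0.43 in the mean of the drug comparisons. In the interaction it ranged from −0.50 to 0.64. The lower end was in each case the value without AL_DCF replicate 1, and the upper end that without AL_DCF replicate 2. In the mean of the drug comparisons DUSP5 ranged from −0.01 without AL_DCF replicate 2 to 0.11 without AL_DCF replicate 1.

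Replicate numbers were not treated as pairs in the main model. With the replicate number as a block, ST_DCF against ST called 0 genes higher instead of 1, the mean of the drug comparisons 9 instead of 5, and SPRED1 lost its call in AL_DCF against ST, which left 2 of the 8 genes higher there. The block changed no other call of the 8 genes.

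Over all genes, AL against ST had 1331 higher and 1793 lower, AL_DCF against ST_DCF 1636 and 1983, their mean 2674 and 2855, and AL_DCF against ST 1481 and 1714. The drug comparisons had 1 and 0 (ST_DCF against ST), 18 and 44 (AL_DCF against AL), 5 and 17 (their mean) and the interaction 0 and 6. With a fold of 2 added these became 266 and 570, 175 and 740, 210 and 711, 208 and 628, and for the drug 0 higher (ST_DCF against ST), 5 higher (AL_DCF against AL) and 2 and 3 (their mean). The exact test gave 435 and 732, 277 and 922, and 313 and 828 in AL_DCF against ST, with 153 and 113 in ST_DCF against ST and 73 and 262 in AL_DCF against AL. The compared libraries alone gave 2647 and 2946 in AL against ST, 562 higher in AL_DCF against ST_DCF, and 3 and 27 in AL_DCF against AL. DESeq2 gave 55 and 25 in ST_DCF against ST, 120 and 144 in AL_DCF against AL, 90 and 71 in their mean and 54 and 92 in the interaction. Without a filter these drug tests gave 0 higher, 4 and 20, 2 and 5, and 3 lower. Limma at a pseudocount of 1 gave 0 higher, 5 and 26, 2 and 10, and 0 lower, and at 0.1 it gave 0 higher, 4 and 23, 3 higher, and 0 lower.

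With 1 library left out, genes called ranged from 488 to 1659 and 864 to 2092 in AL against ST, 961 to 1599 and 1396 to 1978 in AL_DCF against ST_DCF, 1681 to 2693 and 2094 to 2903 in their mean, and 467 to 1850 and 855 to 2013 in AL_DCF against ST. They ranged from 0 to 236 and 0 to 72 in ST_DCF against ST, 1 to 62 and 9 to 81 in AL_DCF against AL, 1 to 209 and 2 to 114 in their mean, and 0 to 44 and 0 to 145 in the interaction. The 8 genes had at least 349 counts in every library, and with 2 libraries per condition 1 library can decide a call.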

Other observations

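DUSP1 and DUSP10 products also act on JNK and p38. Of 12 JNK and p38 kinase genes, 2 were lower in the mean of both AL comparisons (31.7% of all genes were called) and 10 were not called, with a median log2 fold change of 0.04. MAPK13, which encodes p38 delta, had 48.0 and 42.0 CPM in AL_DCF, 43.9 and 44.3 CPM in AL, 106 and 102 CPM in ST_DCF, and 94.7 and 101 CPM in ST. Its log2 fold change was −1.18 (adjusted p = 1.0e-07, edgeR's quasi-likelihood test), without overlap between stimulus and static libraries, and the p38 target kinase gene MAPKAPK3 fell by 0.54 (adjusted p = 3.0e-05). Without AL_DCF replicate 2, 1 gene of this list was called higher.

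Of 7 genes tested from a glucocorticoid list, 3 were higher and 4 were not called in the mean of both AL comparisons. Their median was 0.12, and 15.3% of all genes were higher there. SGK1, a kinase gene, had 82.2 and 78.9 CPM in AL_DCF, 101 and 93.7 CPM in AL, 60.2 and 32.3 CPM in ST_DCF, and 33.1 and 34.0 CPM in ST. It rose by 1.17 on the log2 scale (adjusted p = 8.5e-05), KLF9 by 0.38 (adjusted p = 0.0166) and the receptor gene NR3C1 by 0.20 (adjusted p = 0.0292). The higher genes numbered 1 without ST replicate 2, AL replicate 2 or ST_DCF replicate 2, and without the last 1 gene was called lower.

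The genes whose levels followed a member most closely over the 8 libraries, out of 13459 candidates, are given as a description, since all share the same libraries. The difference is not scaled by how much a gene varies, so its size cannot be compared between members. DUSP1 spanned 2.22 in log2 CPM over the libraries, for example, and SPRED2 0.38. Nearest to DUSP1 were TUBB4A with a root mean square difference of 0.20 in log2 CPM, SATB1 with 0.21 and CHST1 with 0.26. The genes nearest to DUSP5 were IRF1 and B4GALT5 at 0.07 and ANXA3 at 0.08, and to SPRY2 they were ME1 and TMEM158 at 0.08 and ADAM12 at 0.13. SPRY4 had FOXK1 at 0.03, ZBTB39 at 0.06 and HIVEP3 at 0.08. For DUSP4 they were TMEM102 and SNPH at 0.04 and ELOVL4 at 0.06, and for SPRED2 POLR3D, HDDC3 and ARID1A at 0.03.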
